A study of Mus musculus with 2 samples.

Results

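The DNA replication and G1/S genes are 51 genes that carry a cell from the end of G1 through S phase, chosen by symbol from a fixed list and not by their values in these cells. All 51 were among the 15364 genes of the merged table of kept cells. They were described in neural stem cells grown from the hippocampus of C57BL6/J mice, male and 6 weeks old, and sorted singly into 2 plates of 384 wells. No label names more than 1 culture for a condition, so each of the 4 conditions counts as 1 culture. Quiescent cells had been activated cells that were then kept in the same medium with 50 ng/mL BMP4 added and EGF left out, FGF2 and heparin staying, and were taken as quiescent after 3 days. Cells at 24 h and at 48 h of exit had been quiescent and were then given back the growth medium, with EGF, FGF2, heparin and 0.5 µg/mL of noggin, an antagonist of BMP4. Activated cells had been kept throughout in the growth medium, with 20 ng/mL each of FGF2 and EGF, and heparin. Quiescent cells and those of 24 h exit were sorted onto 1 plate, and those of 48 h exit and activated cells onto the other. In each culture, cells were taken from 4 gates along the intensity of punctate autofluorescence. The quiescent state was thus one brought about in culture by a change of medium.

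DNA replication is prepared in G1, when the origin recognition complex, Cdc6 and Cdt1 load the MCM helicase onto origins, a step called licensing. In S phase the helicase is switched on by Cdc45 and the GINS complex. DNA polymerases then copy the strands with the help of the sliding clamp Pcna, its loader Rfc and the single-strand binder Rpa, while ribonucleotide reductase and its partners supply the nucleotides. Many of these genes are known targets of the E2F factors, which are held in check in resting cells, and they are widely used to tell cycling stem cells from resting ones.

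The cell table held 174 quiescent, 151 24 h exit, 151 48 h exit and 164 activated cells, 32 to 46 in each gate, where the series' design text states 47 cells per condition. Their counts summed to 4815930, 3046630, 4125230 and 6563490 in these cultures, and the 51 genes held 0.109%, 0.0781%, 0.400% and 0.454% of them. The plates shared 269 well barcodes, which are reused on every plate. In each culture 10 of 11 neural stem cell markers were detected, with Prom1 under 3 counts in all 4, and their summed level was 3928 to 6705 CPM (a share of all counts, in parts per 1e+06). Dcx and Neurod1, markers of neuroblasts, were under 3 counts in every culture. Defining markers of microglia, endothelium and pericytes summed to at most 2.13 CPM in any culture. The 6 astrocyte markers, several of which stem cells also express, summed to 1137, 1845, 484 and 158 CPM in quiescent, 24 h, 48 h and activated cells, and their part in the results below was not tested.

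With 1 culture per condition there is no test between conditions. Each ratio below is a log2 ratio of CPM with 10 CPM added, over genes with at least 20 counts in the 2 cultures compared, with an exact 95% interval that covers counting error only. A gene counts as called where it differed at least 2-fold on that scale. The scale understates the change of genes with few counts, so ranks by ratio and counts of genes past 2-fold hold on this scale alone. Comparisons of a culture of one plate with a culture of the other cannot be told apart from the plates.

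The activated culture held more transcripts of the replication genes than the quiescent culture. All 51 genes were higher, where 55.1% of all genes tested were, and 41 were at least 2-fold higher, where 9.12% of 11011 genes tested were called in that direction. The median log2 ratio was 1.39 over the 51 genes and 0.07 over all genes tested. The interval lay above 0 for 50 of the 51, where 38.4% of all genes had such an interval. In each of the 4 gates taken alone 48 genes were higher, a count for which the share of all genes is not given. On this scale the 3 smallest ratios belonged to Rpa3, Orc1 and Rpa1. Orc1, which had few counts, was 4.59-fold higher in CPM without the added 10. With 100 CPM added in place of 10, 4 of the 51 were at least 2-fold higher.

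In origin licensing, 8 of 10 genes were at least 2-fold higher in the activated culture with 10 CPM added. Mcm7, a subunit of the MCM helicase, had 27.4, 25.3, 169 and 202 CPM in quiescent, 24 h, 48 h and activated cells, and its log2 ratio of activated over quiescent was 2.50 (95% interval 2.30 to 2.70). Mcm6, another subunit, had 26.6, 18.4, 121 and 190 CPM in quiescent, 24 h, 48 h and activated cells, with a ratio of 2.45 (2.25 to 2.65). For both genes the 48 h exit and activated cultures stood far above the other two, and the 24 h exit culture was the lowest. Orc6, a subunit of the origin recognition complex, had 13.9, 12.1, 22.3 and 35.8 CPM in quiescent, 24 h, 48 h and activated cells, with a ratio of 0.94 (0.68 to 1.19). Orc1, the largest subunit of the same complex, was near the limit of detection, with 4 counts in the quiescent culture, 0 in the 24 h exit culture, 7 in the 48 h exit culture and 25 in the activated culture.

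**Figure D1:**
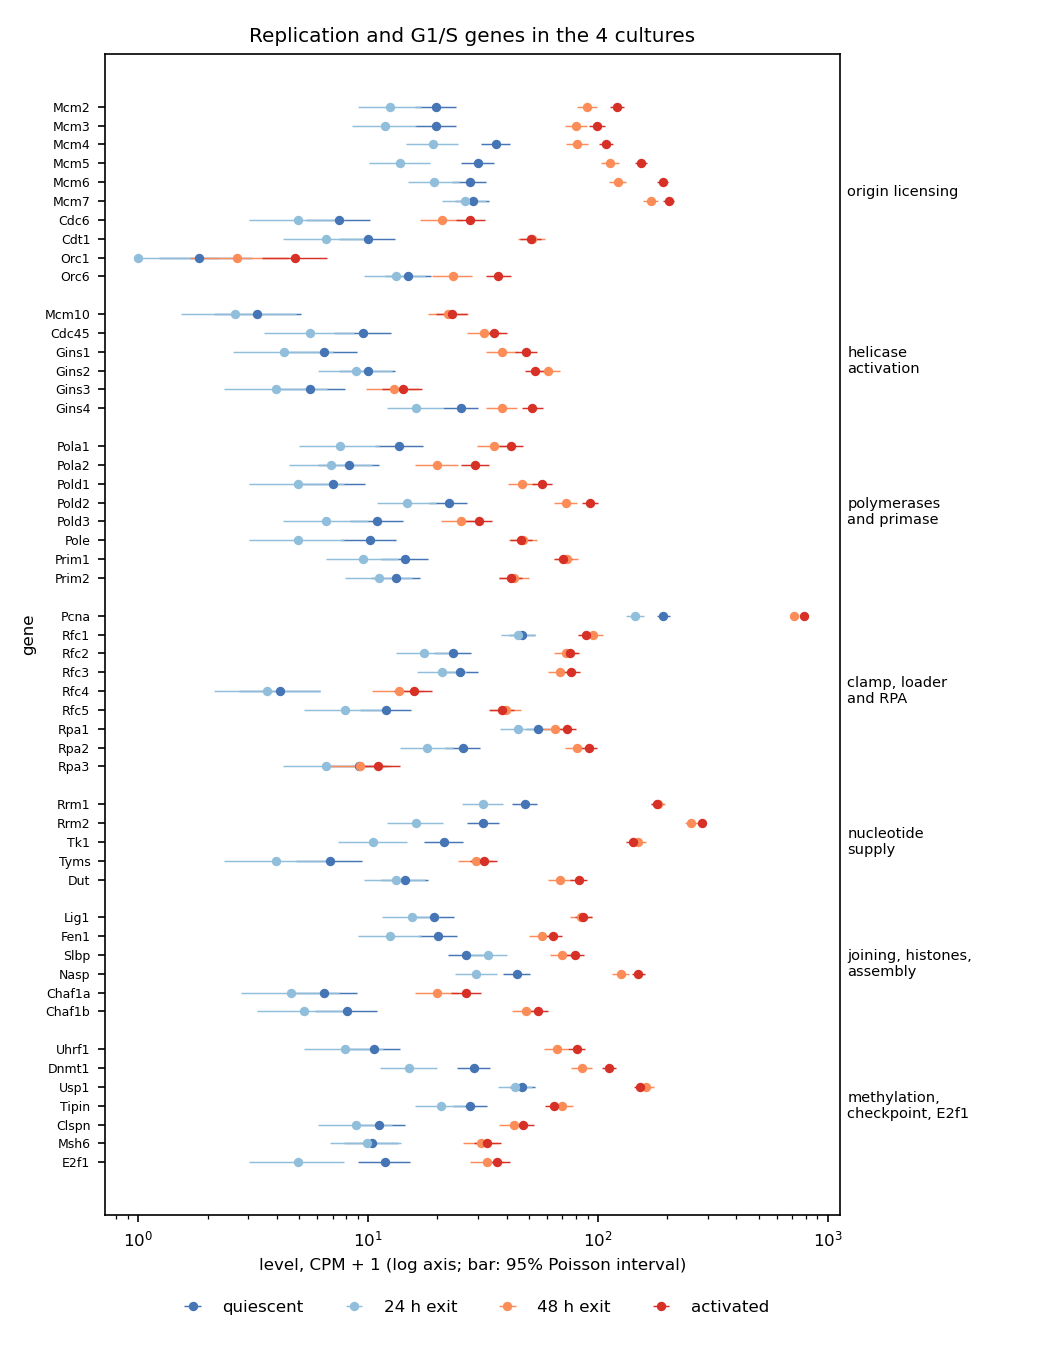
Levels of the 51 genes, as CPM plus 1 on a log axis, in the 4 cultures, grouped by role, with bars for 95% Poisson intervals. The 48 h exit and activated cultures lie to the right of the quiescent and 24 h exit cultures for most genes, while Rpa3 lies close together at 8.10, 5.58, 8.24 and 10.1 CPM in quiescent, 24 h, 48 h and activated cells.

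In helicase activation, 4 of 6 genes were at least 2-fold higher in the activated culture with 10 CPM added. Gins1, a GINS subunit, had 5.40, 3.28, 37.1 and 47.6 CPM in quiescent, 24 h, 48 h and activated cells, with a ratio of 1.90 (1.65 to 2.12) of activated over quiescent. Gins2, a further subunit, had 8.93, 7.88, 59.7 and 52.3 CPM in quiescent, 24 h, 48 h and activated cells, with a ratio of 1.72 (1.47 to 1.95). Gins2 was one of the genes with its highest level at 48 h of exit. Gins3 had 4.57, 2.95, 11.9 and 13.1 CPM in quiescent, 24 h, 48 h and activated cells. With 10 CPM added its ratio was the smallest of the group, 0.67 (0.39 to 0.90). In CPM without that addition Gins3 was 2.87-fold and Gins4 2.09-fold higher in the activated culture.

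Among the polymerases and the primase, 7 of 8 genes were at least 2-fold higher in the activated culture with 10 CPM added. Pold1, the catalytic subunit of polymerase delta, had 6.02, 3.94, 45.8 and 56.2 CPM in quiescent, 24 h, 48 h and activated cells, with a ratio of 2.05 (1.80 to 2.26) of activated over quiescent. Prim1, the catalytic subunit of the primase, had 13.5, 8.54, 72.3 and 69.5 CPM in quiescent, 24 h, 48 h and activated cells, with a ratio of 1.76 (1.52 to 1.99). Pold3, an accessory subunit of polymerase delta, had 9.97, 5.58, 24.2 and 29.3 CPM in quiescent, 24 h, 48 h and activated cells. Its ratio of 0.98 (0.71 to 1.23) was just under the 2-fold limit with 10 CPM added. In CPM without that addition Pold3 was 2.94-fold higher in the activated culture. The catalytic subunits Pola1 and Pole had ratios of 1.17 (0.91 to 1.41) and 1.53 (1.27 to 1.77).

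The clamp, loader and Rpa group had the smallest share of genes past the 2-fold limit, with 5 of 9 genes at least 2-fold higher in the activated culture. Pcna, the sliding clamp, had 191, 144, 708 and 785 CPM in quiescent, 24 h, 48 h and activated cells, with a ratio of 1.98 (1.89 to 2.08) of activated over quiescent. The 3 subunits of Rpa differed in this comparison. Rpa2 had 24.7, 17.1, 79.6 and 90.4 CPM in quiescent, 24 h, 48 h and activated cells, with a ratio of 1.53 (1.32 to 1.75). Rpa1, the large subunit, had a ratio of 0.37 (0.18 to 0.56), and Rpa3, the small subunit, a ratio of 0.15 (-0.14 to 0.42). The intervals of Rpa1 and Rpa3 did not reach that of Rpa2, and the interval of Rpa3 held 0.

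All 5 genes of nucleotide supply were at least 2-fold higher in the activated culture. Rrm2, the subunit of ribonucleotide reductase whose protein is destroyed after mitosis, had 30.6, 15.1, 254 and 281 CPM in quiescent, 24 h, 48 h and activated cells, and its ratio of 2.84 (2.66 to 3.04) was the largest of the 51. Tk1, thymidine kinase, had 20.4, 9.52, 148 and 141 CPM in quiescent, 24 h, 48 h and activated cells, with a ratio of 2.31 (2.10 to 2.52). Both had their lowest level at 24 h. Tyms, thymidylate synthase, had 5.81, 2.95, 28.4 and 30.9 CPM in quiescent, 24 h, 48 h and activated cells, with a ratio of 1.37 (1.11 to 1.60).

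All 6 genes of strand joining, histone supply and chromatin assembly were at least 2-fold higher in the activated culture. Chaf1b, a subunit of the CAF-1 complex that puts histones on new DNA, had 7.06, 4.27, 47.8 and 53.5 CPM in quiescent, 24 h, 48 h and activated cells, with a ratio of 1.90 (1.64 to 2.12) of activated over quiescent. Lig1, the ligase that joins Okazaki fragments, had 18.3, 14.4, 83.4 and 85.4 CPM in quiescent, 24 h, 48 h and activated cells, with a ratio of 1.75 (1.52 to 1.98). Chaf1a, the large subunit of CAF-1, had 5.40, 3.61, 18.9 and 25.8 CPM in quiescent, 24 h, 48 h and activated cells, with a ratio of 1.22 (0.95 to 1.45). The levels of all 3 formed a low pair, quiescent and 24 h, and a high pair, 48 h and activated.

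In the group of DNA methylation, checkpoint, repair and E2f1, 6 of 7 genes were at least 2-fold higher in the activated culture with 10 CPM added. Uhrf1, which brings the maintenance methyltransferase to replicated DNA, had 9.55, 6.89, 65.0 and 79.6 CPM in quiescent, 24 h, 48 h and activated cells, with a ratio of 2.20 (1.95 to 2.42). Dnmt1, that methyltransferase, had 27.8, 14.1, 83.9 and 110 CPM in quiescent, 24 h, 48 h and activated cells, with a ratio of 1.67 (1.46 to 1.88). Tipin, a fork protection factor, had 26.8, 19.7, 68.4 and 63.6 CPM in quiescent, 24 h, 48 h and activated cells. With 10 CPM added its ratio of 0.999 (0.78 to 1.22) fell just short of the 2-fold limit. Without that addition Tipin was 2.37-fold higher in the activated culture.

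Since the genes were higher together, their promoters were searched on both strands for the letters of the E2F element, TTTCCCGC, TTTCGCGC, TTTGCCGC or TTTGGCGC, and for CCAAT, the letters of the NF-Y element. The window ran from 250 bases before to 50 bases after each start in RefSeq's promoters of GRCm38.p6, and 42 of the 51 genes had an entry, the others being Gins1, Gins2, Gins4, Mcm4, Pole, Prim2, Rfc2, Tipin and Usp1. E2F letters stood in 17 of these 42 (40.5%), where 2.6% of 27025 genes of the table and 4.92% of 8711 genes with at least 20 counts in these cells held them. CCAAT stood in 28 of 42 (66.7%), where 41.1% of all genes and 43.7% of the genes with counts held it. In Mcm7 the last base of 1 E2F match was the first base of a CCAAT. The median log2 ratio of activated over quiescent was 1.66 over the 17 genes with E2F letters and 1.37 over the 25 without. The ranges overlapped widely, from 0.35 to 2.50 with the letters and from 0.15 to 2.84 without. Whether the letters bear on the ratio was not tested. The stretches below are 6 of the promoters in which E2F letters lie before the start, shown 5′ to 3′ on the gene's strand with the E2F letters of either strand in capitals, because these genes span licensing (Mcm5, Mcm6, Orc1 and Cdc6), priming of synthesis (Pola1) and DNA methylation (Uhrf1).
Mcm5, chr8:75109326-75109397, plus strand: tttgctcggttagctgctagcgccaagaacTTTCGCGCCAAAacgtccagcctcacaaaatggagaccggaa
Mcm6, chr1:128359774-128359845, minus strand: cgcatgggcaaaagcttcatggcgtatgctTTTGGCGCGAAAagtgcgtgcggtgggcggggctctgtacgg
Orc1, chr4:108579397-108579453, plus strand: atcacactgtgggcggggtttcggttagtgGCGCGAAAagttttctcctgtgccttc
Cdc6, chr11:98907983-98908050, plus strand: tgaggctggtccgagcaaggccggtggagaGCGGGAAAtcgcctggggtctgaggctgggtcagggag
Pola1, chrX:93632256-93632323, minus strand: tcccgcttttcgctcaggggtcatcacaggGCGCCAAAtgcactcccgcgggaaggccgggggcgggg
Uhrf1, chr17:56304098-56304165, plus strand: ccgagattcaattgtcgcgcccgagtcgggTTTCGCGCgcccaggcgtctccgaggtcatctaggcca
In Mcm5 and Mcm6 an element on one strand overlapped one on the other, and the 12 capital letters of Mcm5 are the reverse complement of those of Mcm6. Mcm6 held a further TTTGGCGC before its start, from base -47, which the stretch shown does not reach. These 12 letters, on either strand, stood in the promoters of 4 of the 27025 genes. The letters are a description of these windows and not evidence of binding.

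At 24 h of exit the replication genes were not yet higher than in quiescence. Of 49 genes with at least 20 counts, 48 were lower at 24 h, where 51.7% of 10462 genes were. With 10 CPM added none differed 2-fold, where 2.27% of all genes were called lower and 1.23% higher. In CPM without that addition E2f1 was 2.74-fold lower, with 12 counts at 24 h and 52 in quiescence. Pole, Mcm5, Tk1 and Rrm2 were 2.32-fold, 2.26-fold, 2.14-fold and 2.02-fold lower. The share of all genes past 2-fold without the addition is not given. The median log2 ratio was -0.29 over the 49 genes and -0.01 over all genes, and the interval lay below 0 for 19 genes, or 38.8% of them, where 19.2% of all genes had such an interval. Both cultures were on the same plate. The 5 lowest ratios were -0.77 for Mcm5 (95% interval -1.08 to -0.44), -0.69 for Rrm2 (upper bound -0.37), -0.68 for Mcm4 (-0.98 to -0.37), -0.65 for Dnmt1 (-0.96 to -0.32) and -0.64 for Tk1 (-0.95 to -0.29). Mcm5, a subunit of the MCM helicase, had 39 counts and 12.8 CPM at 24 h, against 139 counts and 28.9 CPM in quiescence. Slbp, which binds the end of histone mRNA, was the only one of the 49 above 0, with 32.2 CPM at 24 h against 25.5 CPM in quiescence and a ratio of 0.25 (-0.05 to 0.54) that held 0.

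The cells that the authors placed in S or G2M were 7 of 151 at 24 h and 16 of 174 in quiescence. Taken over the cells placed in G0 alone, 138 at 24 h and 146 in quiescence, 25 of 37 genes with enough counts were lower at 24 h, where 50.7% of 10120 genes were, and the median was -0.09 over the 37 and -0.00 over all genes. The interval then lay below 0 for 2 genes and above 0 for 1, where 18% and 16.5% of all genes had such intervals. The 2 were Dnmt1 at -0.39 (-0.74 to -0.03) and Pold2 at -0.38 (-0.73 to -0.01), and the 1 was Slbp at 0.39 (0.06 to 0.71). Taking G0 cells alone leaves out cells placed in S, so low levels of S phase genes in both cultures are in part set by that choice.

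At 48 h the replication genes were higher than at 24 h. All 50 genes with at least 20 counts were higher, where 47.4% of 10324 genes were, and 41 were at least 2-fold higher, where 4.49% were called in that direction. The interval lay above 0 for 49 of the 50, where 24.6% of all genes had such an interval. The median was 1.65 over the 50 genes and -0.03 over all genes. In each of the 4 gates 49 genes were higher, again without a share of all genes to set beside them. Rrm2 had the largest ratio at 3.39 (95% interval 3.12 to 3.66), followed by Tk1 at 3.02 (2.72 to 3.29) and Mcm5 at 2.42 (2.12 to 2.70). Mcm5 had 112 CPM at 48 h, against 12.8 CPM at 24 h. Rpa3 had the smallest ratio of the 50, 0.23 (-0.13 to 0.55). These cultures were on different plates, and the same holds for 48 h against quiescence, a comparison that shares the 48 h culture with this one. There, all 50 genes with enough counts were higher at 48 h, where 48.3% of all genes were, and 38 were at least 2-fold higher, where 4.47% of 10663 genes were called, with a median of 1.33 against -0.02 over all genes.

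With 10 CPM added, the 48 h exit and activated cultures, which shared a plate, differed by less than 2-fold in all 51 genes. Of 10780 genes, 1.63% were called lower and 1.25% higher at 48 h. In CPM without that addition Orc1, with 7 counts at 48 h and 25 in the activated culture, was 2.24-fold lower at 48 h. At 48 h, 40 genes were lower and 11 higher, where 61.2% of all genes were lower. The median was -0.14 over the 51 genes and -0.08 over all genes, and the interval lay below 0 for 20 of the 51 (39.2%), where 30.9% of all genes had such an interval. None had an interval above 0, where 15.8% of all genes did. With totals that left out mitochondrial, ribosomal protein and Rn45s counts, 36 of the 51 were lower and the median was -0.05. The roles are set side by side here as a description. In origin licensing 9 of 10 genes were lower at 48 h, 8 with an interval below 0, and the median was -0.34. In the clamp, loader and Rpa group 7 of 9 were lower, 1 with an interval below 0, and the median was -0.14. In nucleotide supply the median was -0.09 and 2 of 5 genes were higher at 48 h.

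Mcm6 had the lowest ratio, with 121 CPM at 48 h against 190 CPM in the activated culture and -0.61 on the log2 scale (95% interval -0.75 to -0.47). Orc6 followed with 22.3 CPM at 48 h against 35.8 CPM in the activated culture, a ratio of -0.50 (-0.76 to -0.25). The ratios of Mcm5, Mcm2 and Mcm4 were -0.42 (-0.57 to -0.27), -0.40 (-0.57 to -0.24) and -0.38 (-0.55 to -0.21). All 6 subunits of the MCM helicase were lower at 48 h in each of the 4 gates. So were 13 of the 51 genes as a whole and 23 of 59 other replication genes, a list described below. The share of all genes lower in each gate is not given, so these counts are not read as particular to these genes. The gates split the same 2 cultures and are not replicates. Cdt1, which delivers that helicase to origins, was the licensing gene above 0, with 50.4 CPM at 48 h against 49.8 CPM in the activated culture and a ratio of 0.01 (-0.20 to 0.23). Gins2 had the highest ratio of the 51, 0.16 (-0.04 to 0.37).

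**Figure D2:**
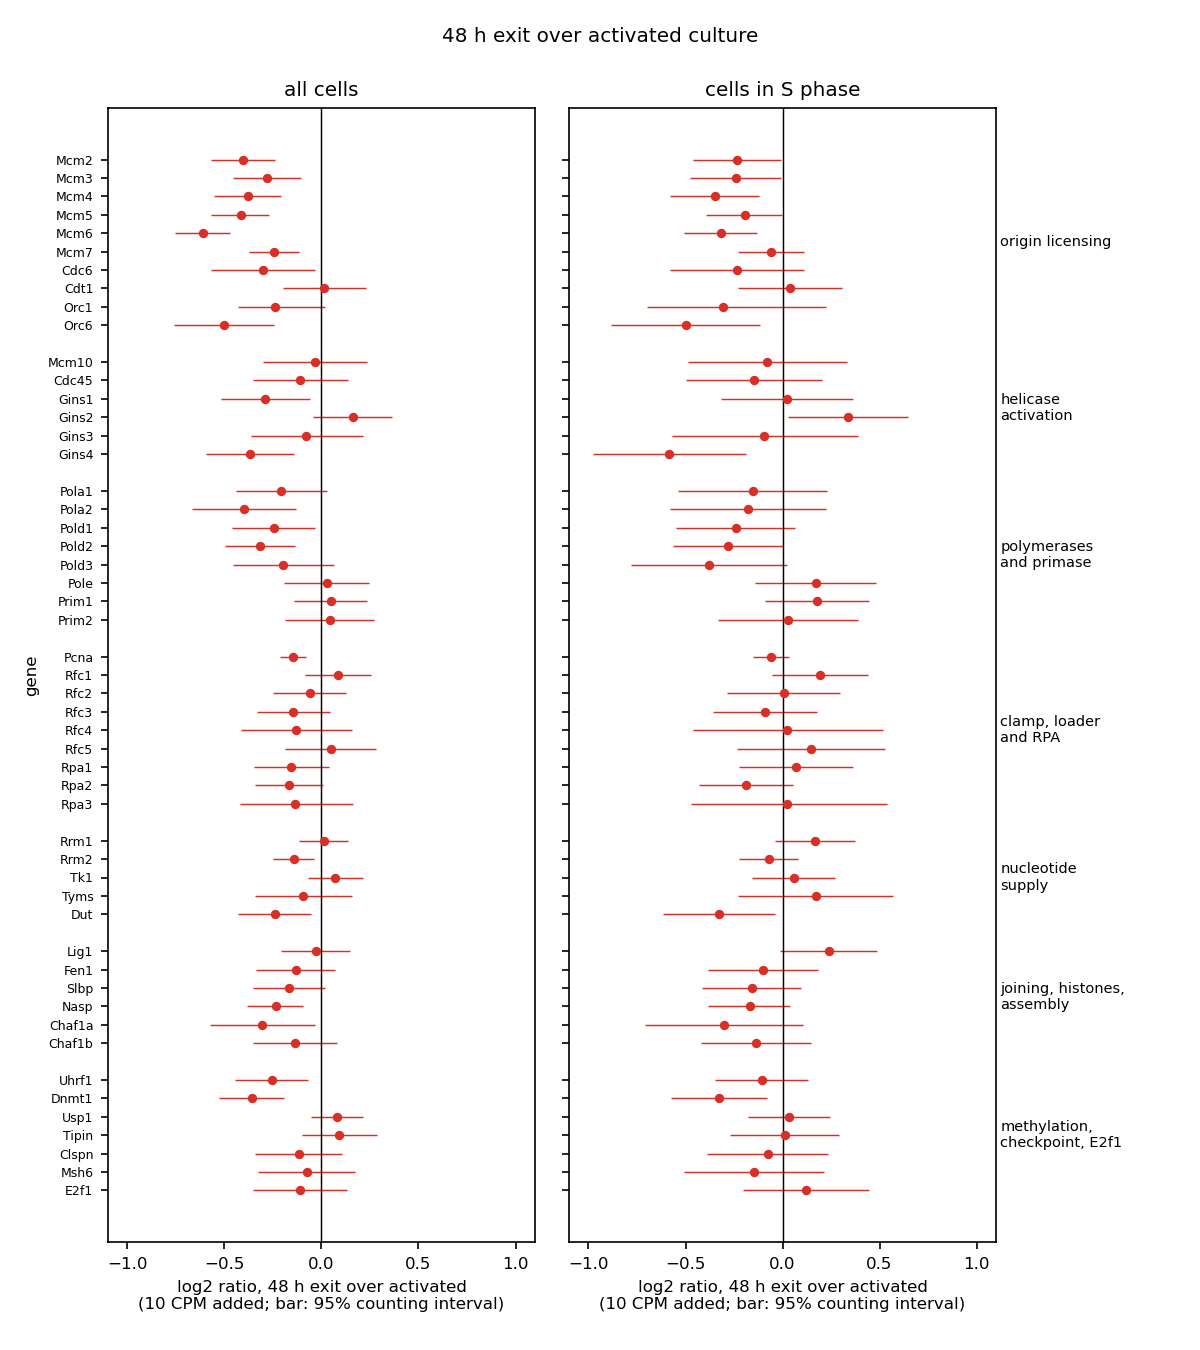
Log2 ratio of 48 h exit over activated for each of the 51 genes, with 10 CPM added and 95% counting intervals, over all cells on the left and over the cells that the authors placed in S on the right. Most licensing genes lie below 0 on both sides, with medians of -0.34 over all cells and -0.24 over S cells. The choice of S cells may rest on some of these genes.

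Shares of phases also differed between these cultures. At 48 h, 50 cells were placed in S, 58 in G2M, 21 in G1 and 22 in G0, against 61 in S, 79 in G2M, 23 in G1 and 1 in G0 in the activated culture. Within S cells, 32 of 51 genes were lower at 48 h, where 60.2% of 9353 genes were, and the median was -0.10 over the 51 and -0.10 over all genes. Within the same S cells, 9 of 10 licensing genes were lower at 48 h, 6 with an interval below 0, where 21.9% of all genes had such an interval, and their median was -0.24. Over the 51 genes, 9 intervals lay below 0 and 1 above 0, where 10.9% of all genes lay above. Orc6 had 38.6 CPM at 48 h against 58.7 CPM in activated S cells, a ratio of -0.50 (-0.88 to -0.11), and Mcm6 had 235 CPM at 48 h against 296 CPM, a ratio of -0.32 (-0.51 to -0.13). The intervals of Mcm2 and Mcm5 ended at -0.01 and -0.00. Within G2M cells 7 of 8 licensing genes with enough counts were lower at 48 h, where 60.1% of all genes were, 3 had an interval below 0, where 23% of all genes did, and their median was -0.33 against -0.09 over all genes. Gins4 had the lowest ratio of all 51 within S cells, -0.58 (-0.98 to -0.19), and Gins2 the highest, 0.34 (0.03 to 0.64). The phases may rest on some of these genes, so levels within S or G2M cells may be in part set by that choice.

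Single cells were compared after each was thinned to 12488 counts, which left out 18 quiescent, 29 24 h exit, 11 48 h exit and 6 activated cells. The summed count of the 51 genes per cell had a median of 7, 6, 44.5 and 58.5 in quiescent, 24 h, 48 h and activated cells. The 90th percentiles were 39, 12, 107 and 108 in quiescent, 24 h, 48 h and activated cells, so that the highest cells of the last pair had similar sums. The lower ends stood further apart, with 10th percentiles of 8.9 at 48 h and 18.7 in the activated culture. A sum of at least 18.7 was reached by 13.5% of quiescent cells (21 of 156, exact 95% interval 8.53% to 19.8%), 7.38% of 24 h cells (9 of 122, 3.43% to 13.5%) and 75.7% of 48 h cells (106 of 140, 67.8% to 82.6%). These intervals cover the sampling of cells within 1 culture and not the spread between cultures.

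**Figure D3:**
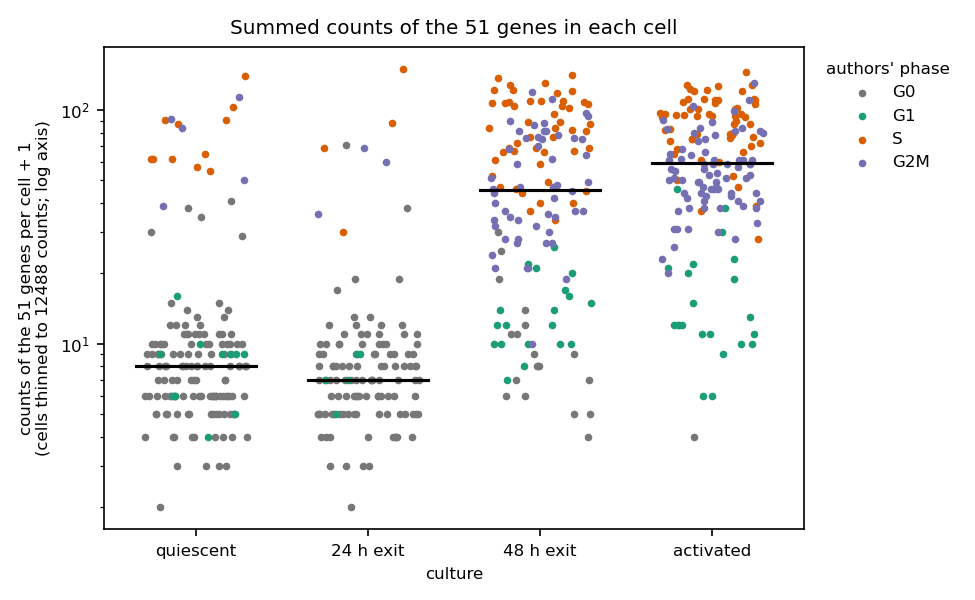
Counts of the 51 genes per cell, plus 1 on a log axis, after thinning, for the 4 cultures, with colours for the authors' phase and a bar for the median (7, 6, 44.5 and 58.5 counts before 1 was added). A few quiescent and 24 h cells, most of them placed in S or G2M, lie among the high cells of the 48 h exit and activated cultures.

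The few S cells of the quiescent and 24 h cultures had sums close to those of the many S cells of the other cultures. Cells placed in S had a summed level of 5885, 6085, 6373 and 6802 CPM in quiescent, 24 h, 48 h and activated cells, from 11, 4, 50 and 61 cells. Cells placed in G0 had 573, 537 and 818 CPM in the quiescent, 24 h exit and 48 h exit cultures. Cells placed in G1 had 578, 479, 1010 and 1106 CPM in quiescent, 24 h, 48 h and activated cells. How the authors set the phases is not given in the sources used here, but their table holds scores for S and G2/M genes, and 24 of the 51 genes are in the S list published with Seurat. The phases may therefore rest on some of these genes, and a difference between phases is a description and not a result. The 27 genes outside that list summed to 1924, 2217, 2244 and 2380 CPM in S cells of quiescent, 24 h, 48 h and activated cells, and to 254, 220 and 332 CPM in G0 cells of the quiescent, 24 h exit and 48 h exit cultures. Across the 140 thinned cells of the 48 h culture, which share a library, the counts of the 27 and of the 24 genes had a Pearson's r of 0.88 and a Spearman's rho of 0.918. The r was 0.904 in quiescent, 0.936 in 24 h and 0.86 in activated cells, and the rho was 0.37 in quiescent, 0.253 in 24 h and 0.866 in activated cells. At 48 h, 41 cells in the authors' cluster 0, the cluster that held 145 of the 151 cells at 24 h, had a summed level of 897 CPM, and 109 cells in cluster 3 had 5068 CPM. Those 145 cells at 24 h had 547 CPM. Cluster 3 had 6150 CPM in 6 quiescent cells and 5668 CPM in 6 cells at 24 h. The clusters may also rest on some of these genes, so their difference is a description and not a result.

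Within a culture, S and G2M cells are set side by side here as a description. In the activated culture 48 of 51 genes were higher in S than in G2M cells, and 12 were at least 2-fold higher, where 0.294% of 9862 genes were. At 48 h 45 of 50 were higher in S cells and 11 at least 2-fold higher, where 0.497% of 8857 genes were. Since the phase labels may rest partly on these genes, these counts get no test. Cdc6, which loads the MCM helicase, had 56.8 CPM in S and 1.19 CPM (2 counts) in G2M cells at 48 h, and 68.5 CPM in S and 5.13 CPM in G2M cells of the activated culture. Its ratios of S over G2M were 2.58 (2.16 to 2.75) at 48 h and 2.38 (2.04 to 2.65) in the activated culture. Cdt1, which is outside the Seurat list, had ratios of 2.13 (1.72 to 2.53) at 48 h and 2.12 (1.82 to 2.41) in the activated culture, and E2f1, also outside it, had 1.77 (1.32 to 2.19) and 1.37 (1.05 to 1.68). Rrm1, the large subunit of ribonucleotide reductase, was lower in S than in G2M cells in both cultures, with 216 CPM in S and 243 CPM in G2M cells at 48 h, and 191 CPM in S and 220 CPM in G2M cells of the activated culture. Its ratios of S over G2M were -0.16 (-0.38 to 0.04) at 48 h and -0.20 (-0.37 to -0.03) in activated cells.

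**Figure D4:**
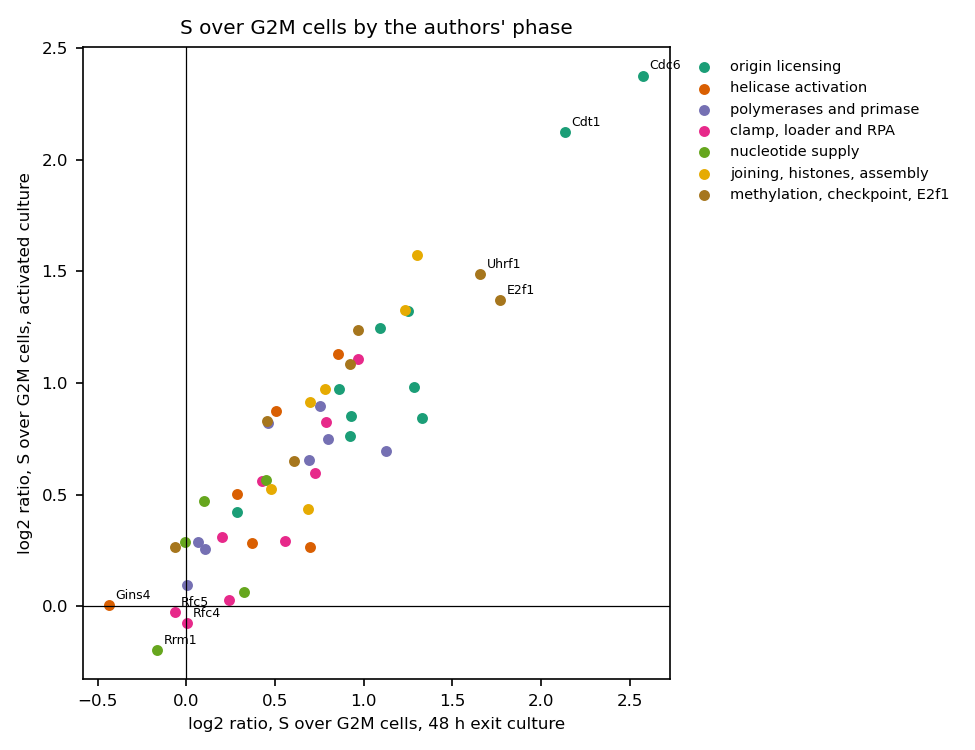
Log2 ratio of S over G2M cells, by the authors' phase and with 10 CPM added, for each of the 51 genes (Orc1, with under 20 counts at 48 h, included) at 48 h of exit (horizontal axis) and in the activated culture (vertical axis), coloured by role. Cdc6 (2.58 at 48 h, 2.38 in activated cells) and Cdt1 (2.13 at 48 h, 2.12 in activated cells) lie at the upper right, and Rrm1 (-0.16 at 48 h, -0.20 in activated cells) at the lower left.

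The shares of cells with a transcript set the 48 h and activated cultures apart from the other two. The median share over the 51 genes was 12.8%, 9.84%, 48.6% and 48.1% of thinned cells in quiescent, 24 h, 48 h and activated cells. Pcna was seen in 63.5%, 69.7%, 95.7% and 98.1% of thinned cells of quiescent, 24 h, 48 h and activated cells. At 24 h the share of Pcna was above that in quiescence while its level was below it, and no order is read from it. Mcm7 was seen in 21.8%, 19.7%, 66.4% and 84.8% of them in quiescent, 24 h, 48 h and activated cells. Orc1 was seen in 0 of 122 thinned cells at 24 h, which by the exact 95% interval allows up to 2.98% of cells with a count but sets no limit on cells that express the gene, and in 3.80% in the activated culture. No share was set against a cell type that lacks these genes, since the cultures hold none.

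The gates ask whether the genes differ with autofluorescence inside a culture. Here the culture is the replicate, 4 in all, and the highest gate was tested against the lowest with edgeR's quasi-likelihood test and the culture as a block. None of the 50 genes tested was called at an adjusted p of at most 0.05, where 2.38% of 8739 genes were called, 1.9% higher and 0.481% lower in the high gate. An unadjusted p under 0.05 was reached by 15 of the 50 genes, where 1402 of the 8739 genes reached it, and DESeq2 also called none, though it gave an adjusted p for few of them and none for 39. The fitted log2 ratio of the high over the low gate was below 0 for 45 of the 50, where 50.2% of all genes were below 0, and the median was -0.26 over the 50 and -0.00 over all genes. Leaving out the quiescent culture moved this median to -0.10, with 37 of 49 genes below 0, and leaving out the 48 h culture moved it to -0.44, with 46 of 47 below 0. It was -0.37 without the activated and -0.24 without the 24 h culture.

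The count of calls depended on the fit. A linear trend over all 4 gates of each culture called 6 of the 50, all lower toward the high gate: Mcm3, Mcm5, Mcm7, Cdt1, Orc6 and Nasp, with edgeR adjusted p of 0.00970 to 0.0412, where 638 of 8934 genes were called. Without a filter on low counts 7 were called, all lower in the high gate: the same 6 and Mcm4, where 414 of 14673 genes were called. Of the replication genes, Nasp alone was called with RLE size factors (edgeR adjusted p = 0.0485), where 228 of 8739 genes were called. Nasp alone was also called with a filter that knew only the gate (edgeR adjusted p = 0.0477), where 223 of 7792 genes were called. Without the culture as a block no gene of any kind was called, and none of the 46 replication genes tested had an unadjusted p under 0.05.

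The smallest p belonged to Nasp, a histone chaperone. Nasp had TMM-scaled levels of 40.7 CPM in the high and 53.4 CPM in the low gate of quiescent cells, 29.5 CPM in the high and 44.2 CPM in the low gate at 24 h, 115 CPM in the high and 135 CPM in the low gate at 48 h, and 111 CPM in the high and 225 CPM in the low gate of activated cells. It was lower in the high gate in 4 of 4 cultures, with a log2 ratio of -0.60 ± 0.16 (SE, n = 4 cultures, edgeR adjusted p = 0.0501). Mcm7 had 18.1 CPM in the high and 50.1 CPM in the low gate of quiescent cells, and 148 CPM in the high and 223 CPM in the low gate of activated cells, with a ratio of -0.62 ± 0.17 (SE, n = 4 cultures, edgeR adjusted p = 0.0560). Mcm5 had 8.39 CPM in the high and 63.4 CPM in the low gate of quiescent cells, and 115 CPM in the high and 156 CPM in the low gate of activated cells, with a ratio of -0.86 ± 0.25 (SE, n = 4 cultures, edgeR adjusted p = 0.0664). All 3 were lower in the high gate in each culture, by differing amounts. The SE given for each is that of the edgeR fit and does not measure the spread between the 4 cultures. For Mcm5 the ratios in single cultures ran from -2.69 in quiescent to -0.43 in activated cells. In origin licensing all 9 genes tested had a ratio below 0, 7 had an unadjusted p under 0.05, and the median was -0.70, against medians of -0.22 for the polymerases and primase and -0.11 for the clamp, loader and Rpa group.

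**Figure D5:**
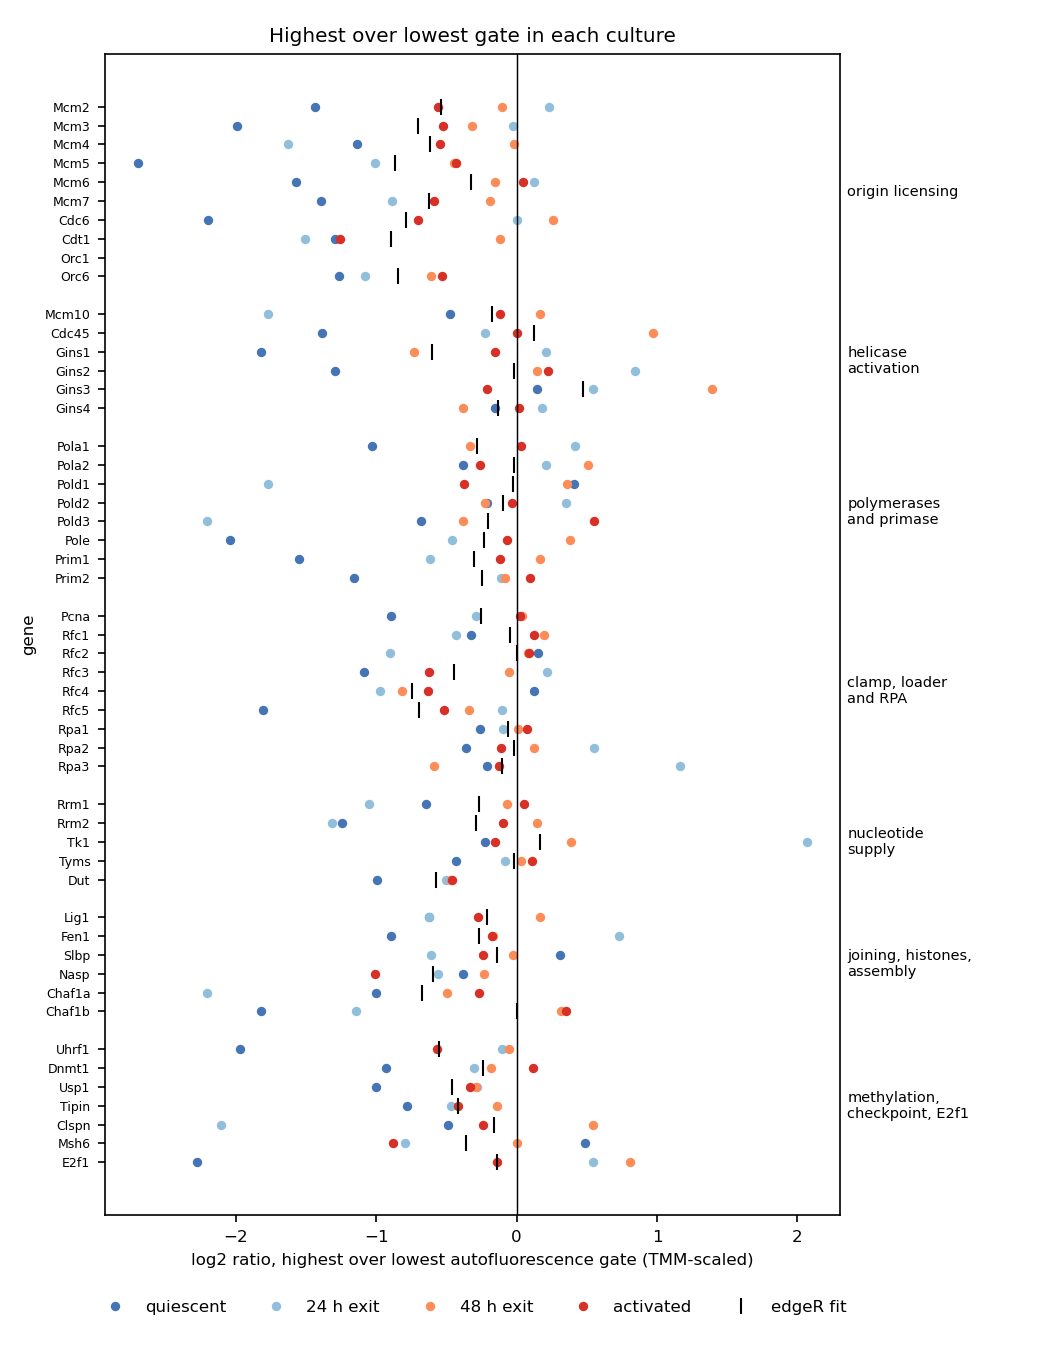
Log2 ratio of the highest over the lowest autofluorescence gate for each gene in each culture (points) and the edgeR fit over the 4 cultures (bars), TMM-scaled; Orc1 was not tested. Licensing genes lie mostly below 0, with Mcm5 at -2.69, -1.01, -0.44 and -0.43 in quiescent, 24 h, 48 h and activated cells.

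Depth and phase moved with the gate as well. The median total count per cell was 40452 in the high and 18910 in the low gate of quiescent cells, and 55395 in the high and 25566 in the low gate of activated cells. Cells in S were 1 of 44 in the high and 6 of 43 in the low gate of quiescent cells, 0 of 37 in the high and 1 of 32 in the low gate at 24 h, 13 of 40 in the high and 15 of 42 in the low gate at 48 h, and 12 of 46 in the high and 10 of 34 in the low gate of activated cells. At 48 h, 13 of 40 cells in the high gate and 0 of 42 in the low gate were placed in G0. Cells placed in G2M were 2 of 44 in the high and 0 of 43 in the low gate of quiescent cells. At 24 h they were 2 of 37 in the high and 0 of 32 in the low gate. At 48 h they were 11 of 40 in the high and 19 of 42 in the low gate. In activated cells they were 24 of 46 in the high and 24 of 34 in the low gate. The part of these differences in the gate result was not tested. Counts of the 51 genes per cell, unscaled, were 219 in the high and 117 in the low gate of activated cells, 135 in the high and 89.3 in the low gate at 48 h, 16.1 in the high and 15.2 in the low gate at 24 h, and 29.7 in the high and 34.03 in the low gate of quiescent cells. Scaled to spike-ins, the fitted ratio was above 0 for 46 of the 50 genes with a median of 0.48, below the 0.74 over all genes, so the direction given above is relative to the other transcripts of the cell.

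Other genes of replication and S phase, a fixed list of 61 in the table, gave a background for the 51. In activated over quiescent, 57 of 59 with enough counts were higher and 32 at least 2-fold higher, with a median of 1.07. Of all genes tested, 55.1% were higher and 9.12% at least 2-fold higher. The 3 largest ratios were 3.06 for Ccna2, cyclin A2, 2.19 for Dbf4, the activator of the Cdc7 kinase, and 1.83 for Dtl, which targets Cdt1 for destruction. The 3 lowest were -0.38 for Rrm2b, the subunit of ribonucleotide reductase used outside S phase, -0.05 for E2f3 and 0.01 for Pold4. At 24 h over quiescent, 44 of 55 were lower and none differed 2-fold with 10 CPM added, and the median was -0.12. Of all genes, 51.7% were lower, 2.27% at least 2-fold lower and 1.23% at least 2-fold higher. Among the lowest there were -0.61 for Atad2 and -0.59 for Ccna2, and the highest were 0.33 for Pole4, 0.30 for Samhd1 and 0.16 for Orc4. At 48 h over 24 h, 31 of 58 were at least 2-fold higher, where 4.49% of all genes were, with a median of 1.07. Ccna2 at 3.09 and Atad2 at 2.06 were among the highest, while Orc3, Rrm2b and Orc4 were at -0.26, -0.19 and 0.05. At 48 h over activated, 45 of 59 were lower, where 61.2% of all genes were, with a median of -0.16 against -0.08 over all genes. Exo1, Hells and Samhd1 were lowest there at -0.75, -0.64 and -0.61, and Dna2, Rrm2b and Ubr7 highest at 0.20, 0.15 and 0.13. At 48 h over quiescent, 23 of 59 were at least 2-fold higher, where 4.47% of all genes were, with a median of 0.84. Ccna2 at 2.50 and Asf1b at 1.81 were among the highest, while Rrm2b, Orc3 and Pold4 were at -0.22, -0.21 and -0.09. In the gate test none of the 56 other replication genes tested was called, where 2.38% of all 8739 genes were. Of the 56, 9 had an unadjusted p under 0.05, where 1402 of all 8739 genes did. A ratio below 0 was found for 44, where 50.2% of all genes were below 0. Of the 20 G2/M genes set beside them, 5 were called, all higher in the high gate: Prc1, Ube2c, Aurkb, Top2a and Nusap1, with edgeR adjusted p of 4.28e-05 to 0.0277. Of the 20, 3 had a ratio below 0, among them Ccnb2 at -0.81. Cells placed in G2M made up less of the high than of the low gate at 48 h and in activated cells. In quiescent and 24 h cells they made up more of it. In activated over quiescent all 20 genes were at least 2-fold higher, with a median of 2.23. The same held at 48 h over 24 h, with a median of 2.39.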

How the data were processed

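Cells were sorted into 384-well plates, and libraries were made by an adapted SORT-seq with CEL-Seq2 steps, per the labels' protocols; this chemistry is known to count the 3' ends of polyadenylated RNA by molecular identifiers. BWA 0.7.15, R 4.2.0 and Seurat 4.1.1, and the builds hg19 and mm10, are named without a role in the submitters' processing notes. The authors deposited an expected count per gene and well. Judged from the values, these are molecule counts corrected for identifiers used more than once out of 4096, since undoing that correction gave whole identifiers within 0.0001. Per the file headers the authors' cell table also gives a score per cell for each of 3 gene lists (those of S, of G2/M and of G0), a phase, a cluster, a condition, a gate and the intensity of scatter and autofluorescence. How cells were filtered or phases set is not given in the sources used here. Of 768 wells, 128 were outside that table and were left out. Cells were sorted singly and no doublet caller was run.

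Counts were summed over the cells of a culture (total 3046630 to 6563490) and compared as described in the report, with exact intervals (Poisson for sums, conditional binomial for ratios) that cover counting error only. Gates were tested on rounded sums per culture and gate with edgeR 4.0.16 under R 4.3.3 (filterByExpr with the whole design, TMM, quasi-likelihood test, Benjamini-Hochberg over 8739 genes at 0.05), with 3 residual degrees of freedom; DESeq2 1.42.0 was an alternative. Each culture holds both gates, which pairs the sums. The rest was done in Python 3.11.15 (scipy 1.17.1 for intervals, pandas 2.3.3 and numpy 2.4.6 for sums, matplotlib 3.10.9 for figures). On simulated data the gate test recovered 22.2% of genes changed 1.5-fold, 64.6% changed 2-fold, 100% changed 4-fold and 76.9% of those at 0.5-fold, with 7 false calls in 8459 genes. Simulated intervals of activated against quiescent held the true ratio for 88% to 98% of changed genes. The members, the lists and the tests were chosen with earlier results of these data known. By rule, the 2 largest and the smallest ratio of activated over quiescent in each role, among members with at least 100 counts, are given in full, with the 3 smallest p between gates and the 3 extreme other replication genes per direction (1 of these is not reported here); further members named were chosen after their values were seen. E2F letters were searched in RefSeq promoters of GRCm38.p6. Reads of near-identical gene copies cannot be assigned with certainty.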

Additional observations from a re-analysis of the deposited data

Results flagged for a closer look

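Of 23 genes checked for a culture that stands apart from the other 3 in the ratio of the high over the low gate, 1 was found, and chance flags about 1 such group in 20. Mcm6 had a log2 ratio of -1.57 in the quiescent culture, where the other 3 cultures lay between -0.15 and 0.12.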

How the results depend on the processing

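Of 176 summary values recomputed, 128 kept their direction and size, and the value with 10 CPM added or the edgeR fit as described comes first below. The median of activated over quiescent, 1.39, was 1.91 with 1 CPM and 0.48 with 100 CPM added, 1.90 per spike-in count, and 1.09 in the lowest and 1.70 in the low-mid gate. That of 48 h over 24 h, 1.65, was 2.29 with 1 CPM, 0.49 with 100 CPM, 2.14 per spike-in count and 2.04 in the mid-high gate. That of 48 h over quiescent, 1.33, was 1.73 with 1 CPM, 0.43 with 100 CPM and 0.99 in the lowest gate. The counts of genes at least 2-fold higher in these comparisons fell to 4, 5 and 4 with 100 CPM added, and for 48 h over quiescent to 24 in the lowest gate. The median of 24 h over quiescent, -0.29, was -0.61 in the lowest and -0.59 in the mid-high gate. The number of genes lower at 24 h was 30 of 34, 24 of 35, 26 of 27 and 16 of 30 from the lowest to the highest gate, and 25 of 37 in G0 cells, an alternative added after seeing the data, as was the use of S cells alone at 48 h. At 48 h over activated, the median of -0.14 was -0.52 per spike-in count and -0.41 in the low-mid gate, and 26 of 50 genes were lower in the highest gate. The median S over G1 ratio with 1 CPM added was 2.87 at 48 h and 2.57 in the activated culture, against 2.07 and 2.09 with 10 CPM. The median share of cells with a transcript was 20.7%, 58.3% and 75.0% without thinning in quiescent, 48 h and activated cells, and 5.17%, 4%, 23.2% and 24.4% at 5000 counts per cell in quiescent, 24 h, 48 h and activated cells. Total counts per spike-in count, which set that scaling before 10 is added, differed on the log2 scale by 0.63 in activated over quiescent, -0.46 in 24 h over quiescent, 0.66 in 48 h over 24 h, -0.44 in 48 h over activated and 0.19 in 48 h over quiescent. A larger added value and a smaller count per cell lower these values by construction.

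Between gates, 208 of all genes and 0 replication genes were called. RLE size factors called 1 replication gene (228 of all genes) and no filter 7 (414 of all genes). A filter by gate alone called 1 (223 of all genes), and the trend over 4 gates 6 (638 of all genes). The filter was set to the whole design after the call under the filter by gate alone had been seen. Scaling to spike-ins, added after seeing the data, called 19, all higher, and 6391 of all genes, with 4 replication genes below 0; Nasp then had 0.17 and Mcm7 0.090, a reversed direction. The cause was not tested. DESeq2 called 113 of all genes. Without the culture as a block 0 genes were called. Leaving out 1 culture left 0 replication genes called, 37 to 46 below 0, and 20 to 179 of all genes called: 20 without the 48 h, 84 without the activated, 151 without the quiescent and 179 without the 24 h culture. No paired analysis of the conditions was possible because each had 1 culture.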
